A study of Homo sapiens with 8 samples.

Results

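The genes described here are 47 that encode the kinetochore, the centromeric chromatin on which it is built and the spindle checkpoint. They were taken by gene symbol from a table of read counts for 58735 genes, not by a threshold on a measured value. All 47 were present in the table, and all 47 were among the 14621 genes kept after low counts were filtered out. The cells were labelled A549, an established line from a human lung adenocarcinoma. The 4 libraries of the EV group came from cells transduced with an empty lentiviral vector, and the 4 libraries of the KRT19 group from cells transduced with a lentiviral vector for KRT19, the epithelial intermediate filament protein keratin 19. Both groups had therefore been through lentiviral transduction, and per the methods of the study transduced lines were selected with puromycin. Whether each line was a clone or a pool was not stated, and nothing says that the libraries of a group came from separate cultures, so p-values measure only the spread between these libraries, which may be technical.

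The kinetochore is the assembly that ties each chromosome to the microtubules of the mitotic spindle. Nucleosomes that carry the histone H3 variant CENP-A mark the centromere, and the CENP proteins of the inner kinetochore (the constitutive centromere-associated network) bind them throughout the cell cycle. The outer kinetochore, made of KNL1, the MIS12 complex and the NDC80 complex, attaches to microtubules, while the spindle checkpoint holds back anaphase as long as a kinetochore is unattached. The chromosomal passenger complex, with the kinase Aurora B, destabilises wrong attachments. Many of these genes are transcribed late in the cell cycle, and in a bulk sample a smaller share of dividing cells and less RNA per cell cannot be told apart.

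The libraries held 14073065 to 17054364 counts, and the members had between 124 and 4810 counts in each library, so that none was near the detection floor of 3 counts. The labels were checked on the overexpressed gene. KRT19 had 1, 3, 2 and 5 counts in the EV libraries and 5147, 4353, 4923 and 4696 in the KRT19 libraries, and its log2 fold change was 10.75 ± 0.12 (SE, edgeR, adjusted p = 5.19e-20), a size that rests on few EV counts. The markers of the labelled line were partly at odds with the label. CDKN2A and MTAP, which A549 cells are known to have lost by deletion, were expressed at 104 ± 6.42 and 46.2 ± 3.58 CPM (counts normalised to library size) in the EV group (SD, n = 4). ALDH1A1, EPCAM and CDH1 had at most 3 counts in any library, and the keratins KRT8 and KRT18 stood at 221 and 315 CPM in the EV group. AKR1B10, AKR1C1 and AKR1C2, also on the list of A549 markers, were at 0.38, 0.978 and 1.47 CPM in the EV group. The 6 A549 markers summed to 456 to 483 in EV and 452 to 478 CPM in KRT19 libraries, nearly all of it from NQO1 (439 CPM in the EV group) and SERPINA1 (29.8 CPM). The 4 epithelial markers summed to 508 to 553 and 463 to 566 CPM. Markers of retina, which the extraction text of the labels names, summed to 0.706 to 1.81 in EV and 0.724 to 1.12 CPM in KRT19 libraries, with RCVRN and SAG at 0 in all. Those of fibroblasts summed to 2.4 to 3.29 and 1.85 to 3.8 CPM, those of endothelium to 2.11 to 2.33 and 1.59 to 1.85 CPM, and those of leukocytes to at most 0.304 CPM.

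KRT19 replicate 3 stood apart from the other libraries. Its counts differed from those of the other KRT19 libraries by a chi-square per degree of freedom of 7.72 to 13.6 over all genes, against 2.79 to 3.76 among those 3 libraries and 3.13 to 6.49 among the EV libraries, where the highest value was that of EV replicates 1 and 3. GC content and gene length accounted for 16.4% of the deviation of KRT19 replicate 3 from its group mean across genes. The share was 11.9% in EV replicate 3, 10% in KRT19 replicate 1 and 0.422% to 5.29% in the remaining libraries. The log2 fold changes of members are therefore given with and without KRT19 replicate 3.

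Per kb of exon, with the exons of all annotated transcripts of a gene joined, the members were mostly well expressed. The median level of the 47 was 13.9 CPM per kb in the EV group, against 4.43 CPM per kb over all genes tested, and 42 of the 47 lay above that value. CDCA8, the borealin subunit of the chromosomal passenger complex, was highest at 66.6 ± 2.41 CPM per kb (SD, n = 4). It was followed on the same scale by the KNL1 partner ZWINT at 64.1 ± 1.49, AURKB at 61.3 ± 3.86, the CENP-A chaperone HJURP at 54.7 ± 1.38, NDC80 at 49.1 ± 3.6 and BIRC5, which encodes survivin, at 41.0 ± 1.03. The SDs of CDCA8, ZWINT and AURKB overlapped, so their order was not resolved. At the other end were CENPC, which encodes the protein that binds the CENP-A nucleosome, at 1.82 ± 0.165 CPM per kb and CENPP at 0.922 ± 0.0713 CPM per kb, and the ratio of the highest to the lowest member was 72.2. For CENPP, 42.7% of its exon bases also lie in other genes, which leaves its level uncertain.

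Subunits of 1 complex were not at equal levels per kb of joined exons. That length counts exons of all annotated transcripts, used or not, so the spans also depend on the annotation. It was 795 bases for CENPW and 9794 bases for CENPP. In the NDC80 complex, NDC80 itself was 3.41-fold above its direct partner NUF2 (14.4 ± 1.1 CPM per kb), with SPC24 at 22.5 ± 0.179 and SPC25 at 21.5 ± 1.12 CPM per kb in between. The span from the highest to the lowest subunit was 3.33-fold in the MIS12 complex (DSN1 to NSL1), 4.02-fold among the checkpoint proteins (BUB1 to MAD1L1), 3.67-fold in the RZZ complex (ZW10 to KNTC1), 2.0-fold in the SKA complex (SKA2 to SKA1) and 2.88-fold in the chromosomal passenger complex (CDCA8 to INCENP). It was widest in the inner kinetochore, where CENPW at 34.6 ± 3.59 CPM per kb was 37.5-fold above CENPP.

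**Figure D1:**
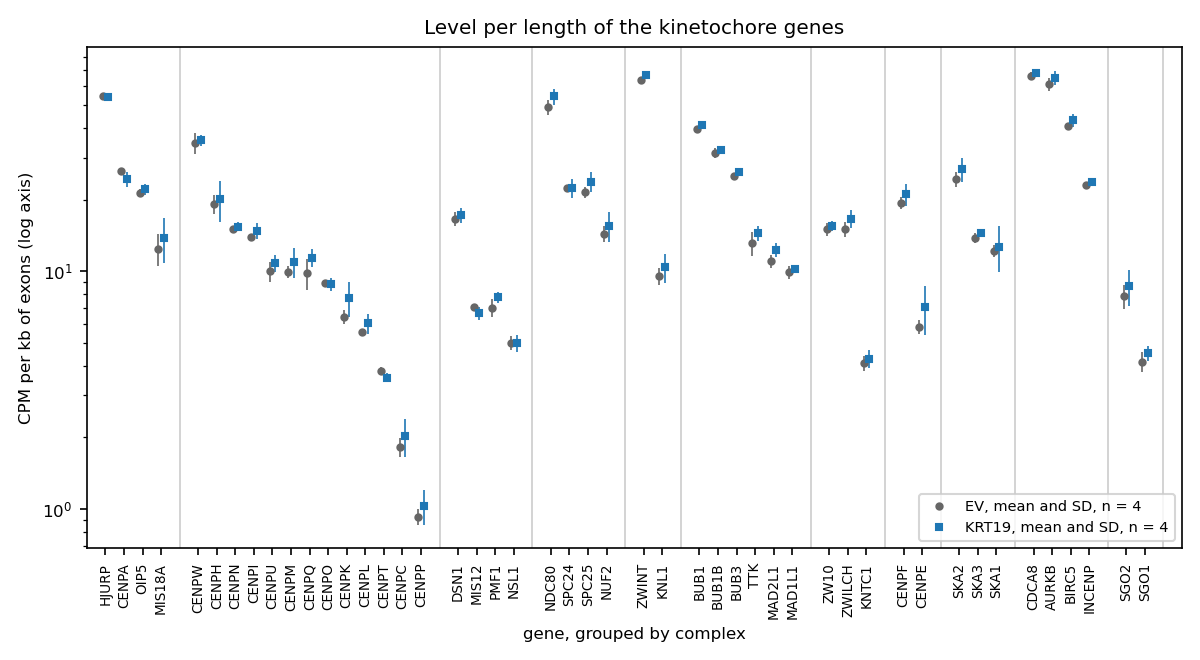
Level of each member in CPM per kb of exon on a log axis, grouped by complex and ordered within each by the EV mean, with EV as circles and KRT19 as squares (mean and SD, n = 4 libraries each). Levels run from 0.922 for CENPP to 66.6 for CDCA8 in the EV group, and for most members the EV and KRT19 bars overlap.

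Promoter sequences are shown because many late cell cycle genes share an element named CHR (cell cycle genes homology region, TTTGAA or the variant TTCGAA) near the transcription start, which is bound by the MuvB core of the DREAM complex, and often a CCAAT box, bound by NF-Y. RefSeq promoter windows on GRCh38.p14, of 250 bases before to 50 bases after the start, were found for 38 members (44 windows). Of the 44 windows, 19 held TTTGAA or TTCGAA on either strand between 50 bases before and 50 bases after the start. That is 43.2% of the windows, against 5.01% of all 35116 windows in the table and 3.52% of the 15096 windows of genes tested here. A CCAAT on either strand between 150 bases before the start and the start was in 54.5% of member windows and 23.5% of all windows, and both elements stood at these places in 25.0% and 1.39%. These matches describe letters in a window and not bound sites.

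The windows below run from 100 bases before to 50 bases after the start, with the strand of the gene read 5′ to 3′. Capitals mark TTTGAA or TTCGAA (or its complement) and CCAAT (or its complement ATTGG). The first pair are genes with an unadjusted p under 0.05 and the CHR letters near the start, BUB1 and CENPA carry the letters without such a p, CENPK has CCAAT alone, and CENPE has neither in this stretch.
NDC80 (chr18:2571457-2571606, plus strand): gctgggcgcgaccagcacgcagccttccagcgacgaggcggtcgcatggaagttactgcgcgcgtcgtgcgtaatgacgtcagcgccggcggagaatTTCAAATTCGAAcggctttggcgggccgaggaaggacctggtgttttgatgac
MAD2L1 (chr4:120066799-120066948, minus strand): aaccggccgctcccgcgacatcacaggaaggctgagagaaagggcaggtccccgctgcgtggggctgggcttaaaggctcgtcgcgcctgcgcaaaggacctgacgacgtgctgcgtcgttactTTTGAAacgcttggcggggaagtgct
BUB1 (chr2:110678014-110678163, minus strand): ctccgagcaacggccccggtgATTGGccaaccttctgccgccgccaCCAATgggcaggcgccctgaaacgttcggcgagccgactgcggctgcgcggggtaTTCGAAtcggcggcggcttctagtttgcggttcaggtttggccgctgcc
CENPA (chr2:26785956-26786105, plus strand): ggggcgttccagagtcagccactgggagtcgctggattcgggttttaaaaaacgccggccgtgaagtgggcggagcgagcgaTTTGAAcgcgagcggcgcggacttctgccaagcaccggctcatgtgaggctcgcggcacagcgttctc
CENPK (chr5:65563119-65563268, minus strand): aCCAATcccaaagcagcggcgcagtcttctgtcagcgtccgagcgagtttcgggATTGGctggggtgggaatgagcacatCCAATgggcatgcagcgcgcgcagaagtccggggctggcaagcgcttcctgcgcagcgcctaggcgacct
CENPE (chr4:103198294-103198443, minus strand): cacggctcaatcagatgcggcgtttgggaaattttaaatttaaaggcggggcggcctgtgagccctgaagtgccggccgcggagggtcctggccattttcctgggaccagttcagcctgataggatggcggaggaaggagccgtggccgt

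NDC80 has 2 matches side by side, which begin 3 bases before the start and at base 4 after it, and in BUB1 the CHR letters begin at base 2 after the start. BUB1 also carries CCAAT letters 79 and 54 bases before the start, on opposite strands. In CENPK, CCAAT letters stand 99, 46 and 20 bases before the start. The 18 members with the CHR letters near the start had a median log2 fold change of 0.054, with 16 of the 18 above 0, and the 20 members without them a median of 0.1, with 16 of the 20 above 0. Without KRT19 replicate 3 the medians were 0.048 and 0.038.

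EV and KRT19 were then compared gene by gene, to see which kinetochore genes differed in cells that overexpress keratin 19. No member passed the adjusted threshold of 0.05 in edgeR (0.00684% of all genes tested did, which is KRT19 alone), and the lowest adjusted p among the members was 0.906. The DESeq2 Wald test and limma-voom also called 0 members after adjustment, and 4 and 7 at an unadjusted p under 0.05, where 3.97% and 9.14% of all genes were called. At an unadjusted p under 0.05 there were 6 members (12.8%), all with the higher mean in the KRT19 group, against 5.41% of all genes tested, of which 2.85% were higher and 2.56% lower. They were CENPK and CENPQ of the inner kinetochore, NDC80, the checkpoint protein gene MAD2L1, ZWILCH of the RZZ complex and the kinesin gene CENPE. The genes differed between methods. The DESeq2 calls were NDC80, MAD2L1, CENPK and CENPQ, all higher in KRT19. Those of limma-voom were MAD2L1, CENPE, CENPK, CENPQ, PMF1 and CENPM, which were higher, and CENPA, which was lower. In 41 of the 47 members (87.2%) the log2 fold change was above 0, against 52.2% of all genes, and the median was 0.075 against 0.0051. The groups did not separate completely in CPM for any member, against 3.44% of all genes tested, of which 1.63% were higher and 1.81% lower in KRT19 libraries. Each difference was small. The 95% intervals of the members reached down to -0.24 at the lowest and up to 0.51 at the highest, so that a log2 change of 1 lay outside all 47.

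The upward lean was smaller without 1 library. Of the 47 members, 29 were highest of all 8 libraries in KRT19 replicate 3, where 23.2% of all genes had their highest value, and 16 were lowest in EV replicate 3, against 17.1% of all genes. The median deviation of the members from their mean over all libraries was 0.18 on the log2 scale in KRT19 replicate 3, and between -0.054 and 0.024 in the other 7 libraries. Without KRT19 replicate 3, 36 of the 47 log2 fold changes were above 0 (51.2% of all genes) and the median was 0.043 (0.0027 over all genes). In that fit the unadjusted p was under 0.05 for 2 members with the higher mean in KRT19, AURKB and CENPM, and for 1 with the lower, CENPA, against 5.35% of all genes, and none of the 6 genes above was among them. Leaving out EV replicate 3 instead left 2 (4.3% of all genes), CENPK and PMF1, with a median of 0.068, and leaving out KRT19 replicate 1 gave 13 (8.28% of all genes). With the replicate number as a block there were 2 (3.08% of all genes), CENPE and CENPK. A looser filter that admitted 30250 genes gave 12 (5.15% of all genes) and let 1 member past the adjusted threshold, CENPE with an adjusted p of 0.026 in edgeR, where 0.235% of all genes passed.

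**Figure D2:**
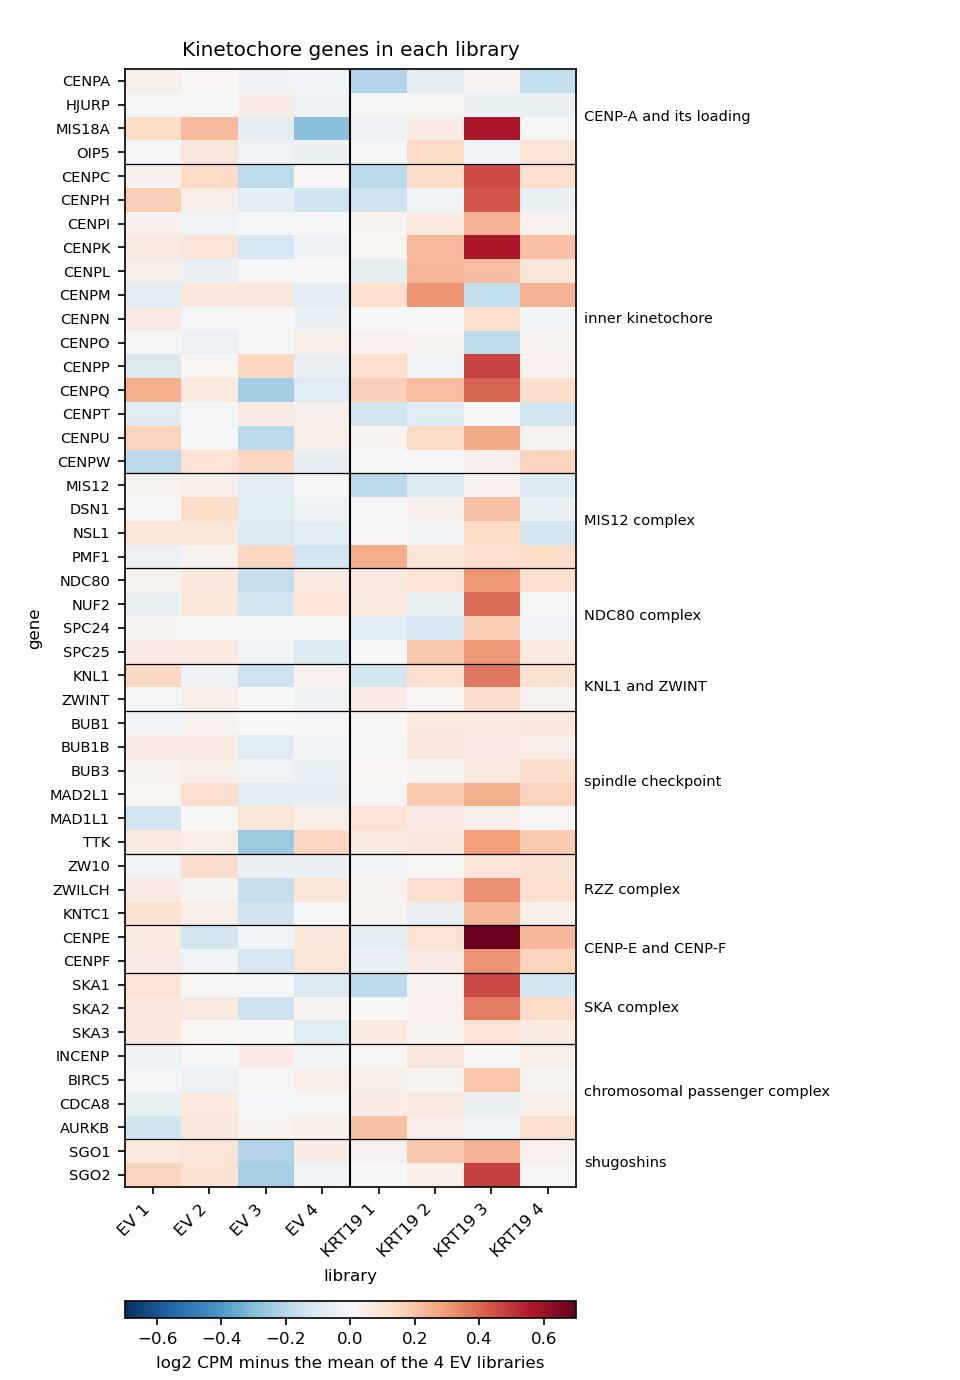
Each row is a member and each column a library, coloured by log2 CPM minus the mean of the 4 EV libraries, with the complexes separated by lines. The column of KRT19 replicate 3 is the darkest red, with 29 of the 47 members at their highest there, and EV replicate 3 holds the lowest value of 16.

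The deviation of these libraries followed the GC content of the members' transcripts. Across the 47 members, the difference of KRT19 replicate 3 from the other KRT19 libraries had a Spearman correlation of -0.582 and a Pearson correlation of -0.59 with GC content, and over 14614 genes -0.469 and -0.366. For EV replicate 3 against the other EV libraries the values were 0.724 and 0.672 over members and 0.455 and 0.321 over all genes. These are descriptions across genes, which share each library and are not independent replicates. The 23 members under 42% GC had a median log2 fold change of 0.12 between the groups and 0.053 without KRT19 replicate 3, and the 24 members at or over 42% had 0.051 and 0.031. With GC and length trends taken out of each library, the median over all 47 was 0.063, with 40 above 0 and 7 at an unadjusted p under 0.05 (8.18% of all genes). The part of base composition in the differences below was not tested beyond these values.

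**Figure D3:**
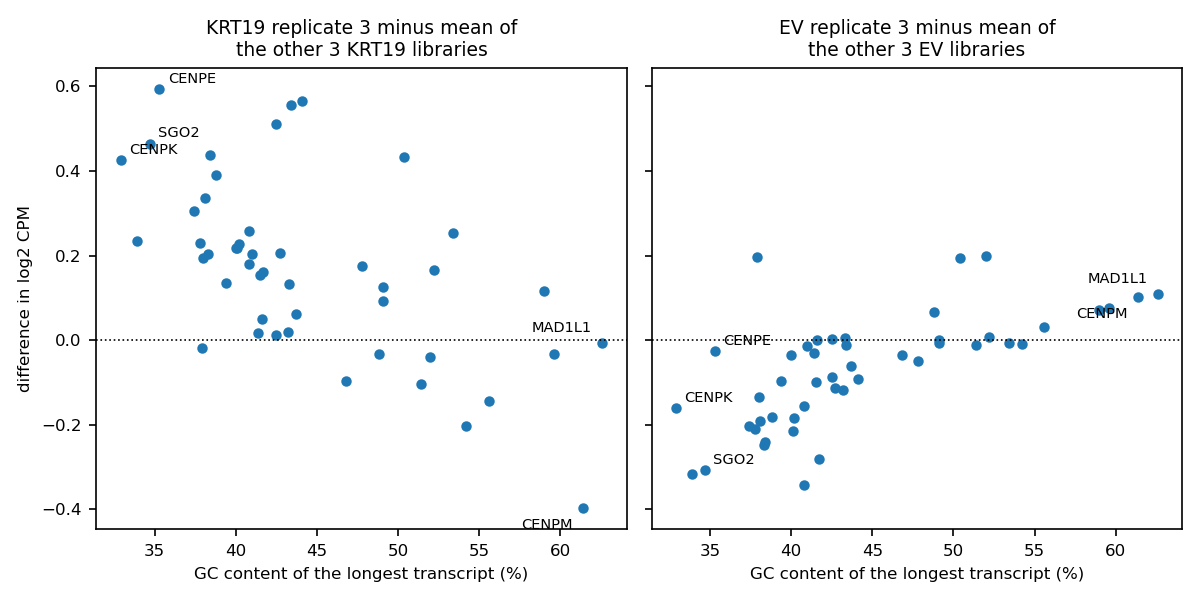
Each point is a member, placed by the GC content of its longest transcript (%) and by the difference in log2 CPM between replicate 3 and the mean of the other 3 libraries of its group, KRT19 on the left and EV on the right. Points slope down on the left (Spearman -0.582) and up on the right (Spearman 0.724).

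Of the 4 genes of CENP-A and its loading, 2 had log2 fold changes above 0. CENPA, the centromeric histone itself (ENSG00000115163, chr2:26764289-26801067), had 53.7, 52.5, 50.7 and 51.4 CPM in the EV libraries and 45.1, 49.2, 52.9 and 46.1 CPM in the KRT19 libraries. The KRT19 libraries other than replicate 3 lay below every EV library, and replicate 3 lay among them. Its log2 fold change was -0.11 ± 0.061 (SE, edgeR, unadjusted p = 0.097, adjusted p = 0.906), and it was -0.15 without that library, with an unadjusted p of 0.0133. HJURP, the chaperone that deposits CENP-A, held 204 to 216 in EV and 202 to 211 CPM in KRT19 libraries, with a log2 fold change of -0.02 ± 0.045, or -0.012 without KRT19 replicate 3. The licensing factor gene MIS18A had 23.2, 24.8, 20.1 and 17.2 in EV and 20.5, 21.9, 31.4 and 21.2 CPM in KRT19 libraries, and its log2 fold change of 0.16 ± 0.13 became -0.0076 without KRT19 replicate 3. OIP5, which encodes the other Mis18 subunit, stood at 26.4 ± 1.04 and 27.4 ± 1.46 CPM (SD, n = 4), with a log2 fold change of 0.05 ± 0.066, or 0.074 without KRT19 replicate 3, and 38.0% of its exon bases overlap the opposite-strand gene OIP5-AS1.

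Among the 13 inner kinetochore genes the values of 11 leaned upward, with a median log2 fold change of 0.11, or 0.039 without KRT19 replicate 3. CENPK, a subunit of the CENP-HIKM group (ENSG00000123219, chr5:65517766-65563171), had 29, 29.5, 25.4 and 27.0 in EV and 27.9, 32.4, 41.2 and 31.9 CPM in KRT19 libraries. Replicates 2, 3 and 4 of KRT19 lay above all EV libraries and replicate 1 among them. Its log2 fold change of 0.27 ± 0.097 was the largest of the 47 beside that of CENPE (edgeR, unadjusted p = 0.0127, adjusted p = 0.906), it was 0.15 without KRT19 replicate 3 (unadjusted p = 0.0568), and the exact permutation test gave a two-sided p of 0.0857, where 0.0286 is the smallest that 4 against 4 libraries allow. Among the 17 alternatives its adjusted p was between 0.119 and 1.0. CENPQ of the CENP-OPQUR group (ENSG00000031691, chr6:49463378-49493107) had 20.1, 17.7, 14.2 and 15.8 in EV and 18.9, 19.6, 22.3 and 18.3 CPM in KRT19 libraries, and EV replicate 1 lay above 3 of the 4 KRT19 libraries. The log2 fold change of CENPQ was 0.23 ± 0.1, with an unadjusted p of 0.0376 in edgeR, and 0.16 without KRT19 replicate 3 (unadjusted p = 0.109).

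The remaining inner kinetochore genes had unadjusted p-values over 0.05 in the fit of all libraries. CENPM had its lowest value in KRT19 replicate 3, with 16.6, 18.5, 18.6 and 16.8 in EV and 19.0, 21.9, 15.6 and 20.8 CPM in KRT19 libraries. Without that library its KRT19 values lay above all EV values, and the log2 fold change moved from 0.13 to 0.22, with an unadjusted p of 0.0136 in edgeR. CENPC had 15.7 ± 1.42 in EV and 17.4 ± 3.2 CPM in KRT19 libraries, and its log2 fold change was 0.15 ± 0.11, or 0.019 without KRT19 replicate 3. CENPT, the subunit that links the centromere directly to the NDC80 complex, had 19.9, 20.8, 21.8 and 21.5 in EV and 19.2, 19.7, 21.0 and 19.1 CPM in KRT19 libraries, with a log2 fold change of -0.088 ± 0.071, or -0.12 without KRT19 replicate 3. CENPO, at 49.4 ± 1.14 and 48.6 ± 3.29 CPM, gave -0.023 ± 0.06 and turned to 0.026 without KRT19 replicate 3, and CENPP gave 0.16 ± 0.12 and 0.039 in the same pair of fits. The other members of this network (CENPH, CENPI, CENPL, CENPN, CENPU and CENPW) had log2 fold changes of 0.027 to 0.12. Without KRT19 replicate 3 CENPH turned to -0.074 and CENPN to -0.0054, and CENPI, CENPL, CENPU and CENPW gave 0.038, 0.085, 0.058 and 0.047. CENPO, CENPN, CENPT and CENPU share 31.4%, 22.8%, 19.6% and 11.7% of their exon bases with 1 to 3 other genes each, as do ZWILCH (10.9%), BUB1B (10.2%), MIS12 (9.53%) and CENPA (6.96%) outside this network, and their counts carry that uncertainty.

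In the outer kinetochore, NDC80, the microtubule-binding subunit for which the complex is named (ENSG00000080986, chr18:2571511-2616635), had 179, 186, 158 and 184 in EV and 185, 189, 219 and 191 CPM in KRT19 libraries. The value of KRT19 replicate 1 lay just under that of EV replicate 2 and the other KRT19 libraries lay above every EV library, and the widest gaps within a group were those of replicate 3 on both sides. Its log2 fold change was 0.15 ± 0.063 in edgeR (unadjusted p = 0.0316, adjusted p = 0.906), or 0.091 with an unadjusted p of 0.1 without KRT19 replicate 3, and the exact permutation p was 0.0571. Its binding partner NUF2 gave 0.11 ± 0.087 and 0.0016 in the same 2 fits, SPC25 gave 0.14 ± 0.071 and 0.086, and SPC24 gave -0.007 ± 0.064 and -0.075. KRT19 replicate 3 held the highest value of the 8 libraries for all 4 subunits, with 72.3 CPM of SPC24 against 58.8 to 64.7 CPM elsewhere.

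MIS12, which connects the inner to the outer kinetochore, had 22.7, 23.0, 21.2 and 22.4 in EV and 19.6, 20.8, 22.7 and 20.8 CPM in KRT19 libraries, with a log2 fold change of -0.087 ± 0.072, or -0.13 without KRT19 replicate 3. Its partners DSN1, NSL1 and PMF1 gave 0.052 ± 0.068, 0.00013 ± 0.08 and 0.15 ± 0.081, and -0.0035, -0.052 and 0.16 without KRT19 replicate 3. PMF1 shares 23.3% of its exon bases with the readthrough gene PMF1-BGLAP on its strand. KNL1, the scaffold on which the checkpoint proteins gather, had 97.6 ± 8.23 in EV and 106 ± 15 CPM in KRT19 libraries, and ZWINT had 153 ± 3.54 and 159 ± 5.5 CPM. Neither had an unadjusted p under 0.05, with log2 fold changes of 0.12 ± 0.085 and 0.056 ± 0.048, or 0.031 and 0.032 without KRT19 replicate 3. For the kinetochore-bound kinesin gene CENPE (ENSG00000138778, chr4:103105806-103198409) there were 58.0, 50.4, 54.5 and 58.3 in EV and 52.8, 59.3, 88.8 and 65.0 CPM in KRT19 libraries. Its KRT19 libraries had a coefficient of variation of 23.7%, the highest of any member, and the log2 fold change of 0.27 ± 0.11 (edgeR, unadjusted p = 0.0321) was 0.093 without KRT19 replicate 3 (unadjusted p = 0.189). The corona protein gene CENPF had 227 ± 14.1 and 247 ± 26.7 CPM, a log2 fold change of 0.12 ± 0.068, or 0.054 without KRT19 replicate 3.

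All 6 spindle checkpoint genes had values above 0, also without KRT19 replicate 3, and their median was nearly the same in both fits, 0.054 and 0.051. MAD2L1, which encodes the MAD2 protein of the anaphase inhibitor (ENSG00000164109, chr4:120055608-120067074), had 64.0, 68.9, 60.3 and 60.7 in EV and 63.8, 72.0, 75.6 and 71.0 CPM in KRT19 libraries. Again KRT19 replicate 1 was the 1 library of its group that lay among the EV values. The log2 fold change of MAD2L1 was 0.15 ± 0.064 (edgeR, unadjusted p = 0.0282, adjusted p = 0.906) and 0.12 without KRT19 replicate 3 (unadjusted p = 0.0672). The kinase gene BUB1 had 237, 244, 240.0 and 239 in EV and 241, 251, 250 and 252 CPM in KRT19 libraries, and its log2 fold change was 0.053 (95% interval -0.039 to 0.14), or 0.05 without KRT19 replicate 3. Its libraries lay close together in both groups. TTK, the MPS1 kinase that starts the checkpoint signal, gave 0.15 ± 0.079 and 0.10 without KRT19 replicate 3, with EV replicate 3 at 49.8 CPM against 61.6 to 66.0 CPM in the other EV libraries. BUB1B, BUB3 and MAD1L1 gave 0.043 ± 0.05, 0.055 ± 0.047 and 0.05 ± 0.058, and 0.038, 0.051 and 0.051 without KRT19 replicate 3.

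The RZZ complex brings dynein and MAD1 to unattached kinetochores. ZWILCH (ENSG00000174442, chr15:66504959-66550128) had 75.5, 73.5, 65.0 and 77.0 in EV and 73.8, 78.9, 90.5 and 78.8 CPM in KRT19 libraries, so replicates 2, 3 and 4 of KRT19 were above all EV libraries. The log2 fold change of ZWILCH, 0.15 ± 0.069, had an unadjusted p of 0.0494 in edgeR, and it was 0.085 without KRT19 replicate 3 (unadjusted p = 0.175). ZW10 and KNTC1 gave 0.044 ± 0.061 and 0.065 ± 0.071, or 0.028 and 0.0041 without that library. In the SKA complex, which follows depolymerising microtubule ends, SKA1 had 35.9 ± 1.99 in EV and 37.6 ± 8.15 CPM in KRT19 libraries, where replicate 3 had 49.4 CPM and the others 31.6 to 36.6 CPM. For SKA1 the log2 fold change of 0.07 ± 0.11 turned to -0.094 without that library, while SKA2 gave 0.14 ± 0.076 and 0.052, and SKA3 gave 0.065 ± 0.057 and 0.053.

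**Figure D4:**
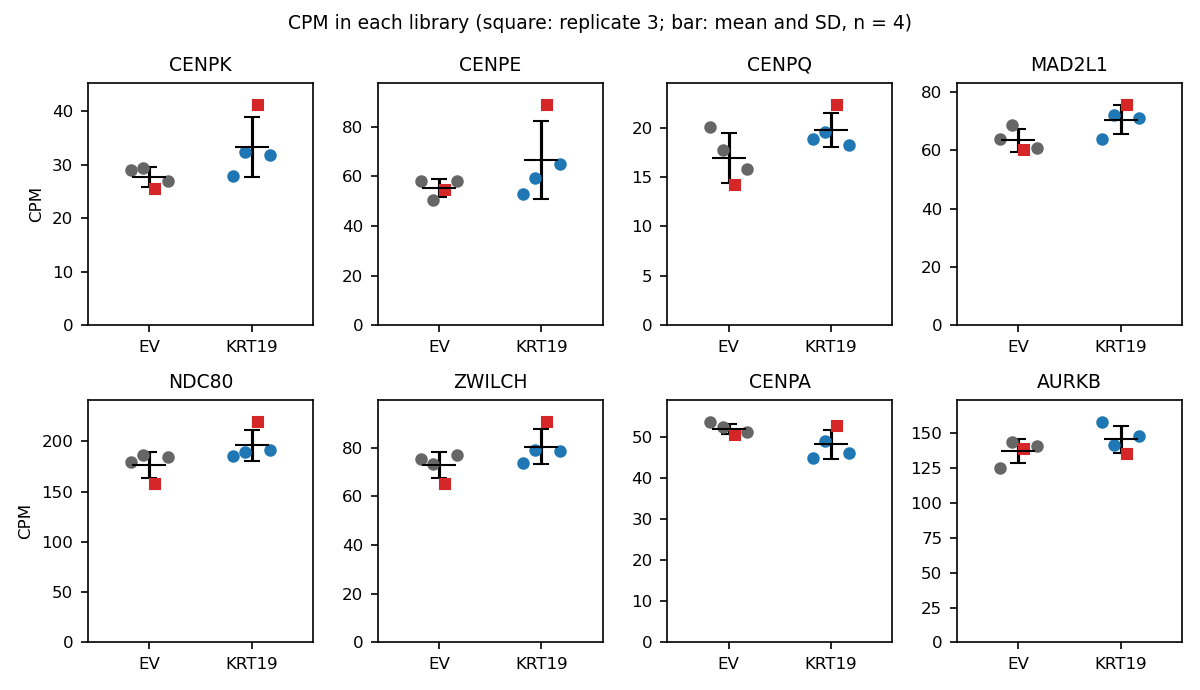
CPM of 8 members in each library, with replicate 3 of each group as a square and the mean and SD of 4 libraries as bars. For CENPK, CENPE, CENPQ, MAD2L1, NDC80 and ZWILCH the KRT19 square is the highest point, for CENPA it lies among the EV values above the other KRT19 points, and for AURKB it is the lowest of the KRT19 points.

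The chromosomal passenger complex was the 1 group of members whose median in KRT19 replicate 3 lay below the mean over all libraries. It was -0.035 on the log2 scale over its 4 genes, which have 51.4% to 59.6% GC. Of the lists read below, the anaphase-promoting complex had -0.025 there and the mitotic kinases -0.016. The other centromere factors had 0.081, and cohesin and condensin 0.14. The median log2 fold change of the passenger complex genes was 0.053 with that library and 0.049 without it. AURKB, the kinase of the complex (ENSG00000178999, chr17:8204733-8210600), had 125, 144, 139 and 141 in EV and 158, 142, 135 and 148 CPM in KRT19 libraries, and the groups overlapped in both directions. Its log2 fold change was 0.085 ± 0.06 (edgeR, unadjusted p = 0.174) and 0.12 without KRT19 replicate 3 (unadjusted p = 0.0382). INCENP, the scaffold, gave 0.035 ± 0.049, CDCA8 gave 0.029 ± 0.049 and BIRC5 gave 0.072 ± 0.052, against 0.043, 0.054 and 0.029 without KRT19 replicate 3. The shugoshins guard centromeric cohesion until anaphase. SGO1 had 15.9 ± 1.49 in EV and 17.3 ± 1.32 CPM in KRT19 libraries and SGO2 had 47.3 ± 5.51 and 52.0 ± 9.08 CPM, with log2 fold changes of 0.12 ± 0.09 and 0.14 ± 0.1, or 0.078 and 0.007 without KRT19 replicate 3. SGO1 shares 17.7% of its exon bases with SGO1-AS1 on the opposite strand, so its counts could include reads of that gene.

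Without KRT19 replicate 3 the groups did not overlap in CPM for 5 members, against 6.44% of all genes tested. CENPM was higher in KRT19 libraries, and CENPA, CENPT, MIS12 and SPC24 were lower, where 3.28% and 3.17% of all genes did so in each direction. Without KRT19 replicate 1 there were 8, all higher in KRT19 libraries, against 7.84% of all genes in either direction and 3.93% in that one. These were CENPK, CENPL, NDC80, SPC25, BUB1, MAD2L1, ZWILCH and CENPE. With GC and length trends removed there were 5 in log2 CPM, against 5.07% of all genes. CENPK, NDC80, ZWINT and SKA2 were higher in KRT19 libraries and MIS12 was lower, against 2.78% and 2.28% of all genes.

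**Figure D5:**
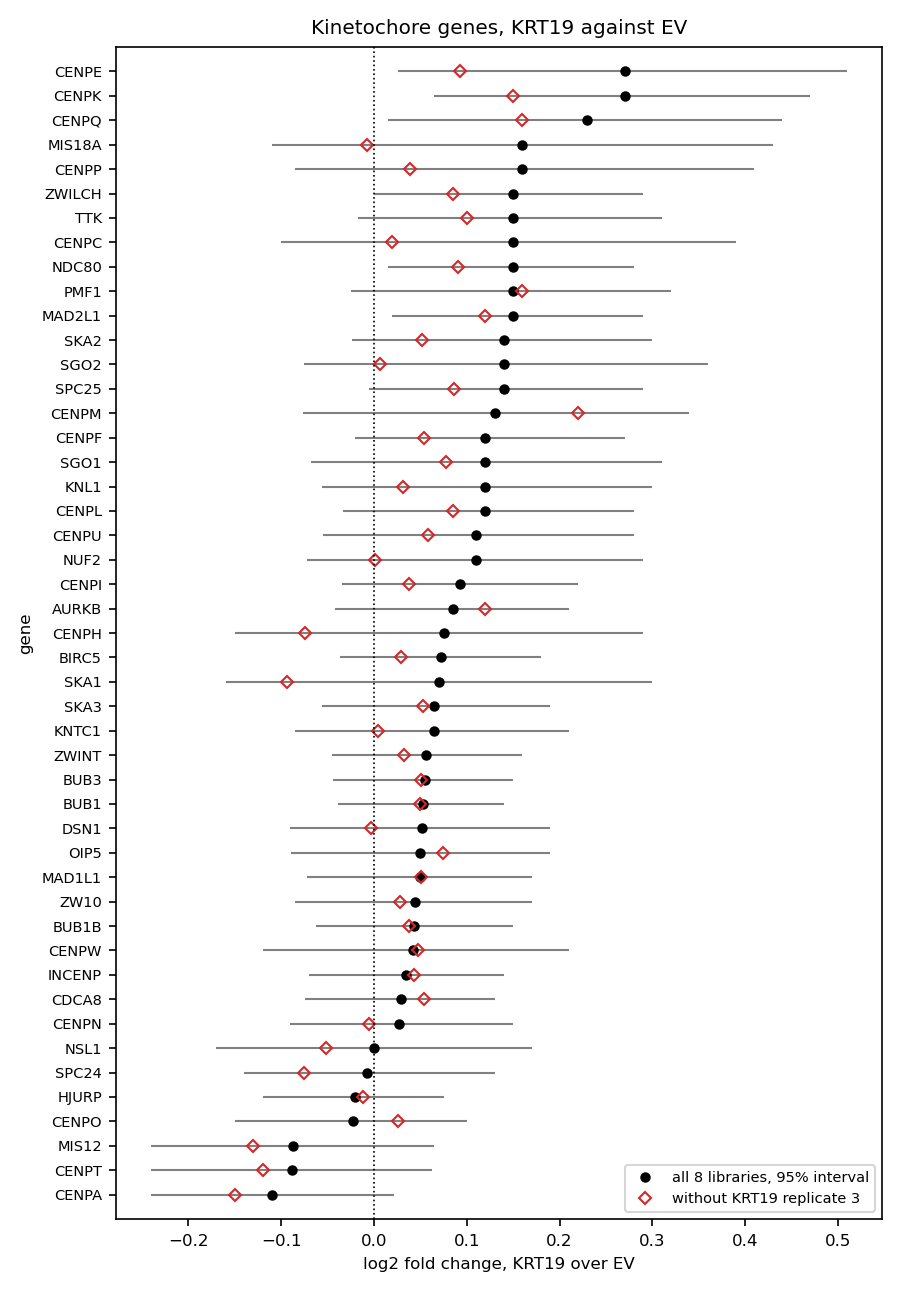
Log2 fold change of KRT19 over EV for the 47 members, with black points and 95% intervals from all 8 libraries and open diamonds for the estimate without KRT19 replicate 3. Most black points lie to the right of 0 (41 of 47) and most diamonds lie closer to 0, with exceptions such as CENPM, AURKB and CENPA.

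Genes that work beside the kinetochore were read in the same fit, and none passed the adjusted threshold. Of 7 other centromere factors, 6 had log2 fold changes above 0 and the median was 0.084, or 0.047 without KRT19 replicate 3. The 23 genes of the anaphase-promoting complex and mitotic exit, which the checkpoint restrains, had a median of 0.017, with 13 above 0, and 0.04, with 15 above 0, without KRT19 replicate 3, where the median of the 47 members was 0.043. In both fits 0 of the 23 had an unadjusted p under 0.05 in edgeR, against 5.41% and 5.35% of all genes. Of 28 mitotic kinases, motors and spindle factors, 21 were above 0 with a median of 0.032, the same value as without KRT19 replicate 3, and the kinesin gene KIF14 (0.25 ± 0.098) and the microtubule plus-end gene CLIP1 (0.16 ± 0.063) had unadjusted p-values of 0.0216 and 0.0224 in edgeR, 2 of 28 against 5.41% of all genes. Without KRT19 replicate 3 they gave 0.13 (unadjusted p = 0.09) and 0.10 (unadjusted p = 0.087), and 0 of the 28 were under 0.05, against 5.35% of all genes. The cohesin and condensin list had 16 of 19 above 0, a median of 0.11 (0.077 without KRT19 replicate 3), and 7 at an unadjusted p under 0.05, all higher in KRT19 libraries, against 5.41% of all genes tested and 2.85% in that direction. The number was 3 without KRT19 replicate 3 (5.35% of all genes), 2 without EV replicate 3 (4.3%) and 12 with GC and length trends removed (8.18%).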

How the data were processed

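RNA-seq of 8 libraries, 4 EV and 4 KRT19, was analysed from 1 table of read counts per gene that the authors deposited without normalization, with gene coordinates and a gene length column (union exon length of GENCODE 29 for all 58735 genes). The submitters' processing notes name Bowtie 0.12.2, featureCounts 1.5.0-p3, DESeq2 and hg38 without order. RNA was isolated with TRIzol, and the sequencing provider cleaned the reads. Handling of strand and of reads matching several genes was not given in the sources used here.

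The fit used edgeR 4.0.16 in R 4.3.3 (filterByExpr, TMM, glmQLFit and glmQLFTest on group) over all 14621 genes kept, which held at least 99.8% of each library's counts, with Benjamini-Hochberg adjustment at 0.05. The study's threshold is an unadjusted 0.05, so both counts are given. SE is the log2 fold change over the square root of F. CPM used TMM-scaled library sizes, and log2 CPM a prior count of 2. Exact permutation tests were two-sided over library labels. Intervals and floors cover counting error or library spread only.

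Alternatives were DESeq2 size factors, upper-quartile scaling, the DESeq2 1.42.0 Wald test, limma-voom (limma 3.58.1) with quality weights, a filter admitting genes with 1 count in total, a stricter one (5 CPM in 4 libraries), the replicate number as a block and leaving out each library. Removing GC and length trends per library (natural splines, 5 degrees of freedom, GC set to the median for 7 genes), alone and with the block, was added after seeing the data. The members, gene lists and markers were chosen with earlier results of these data known. Named genes were KRT19, members at an unadjusted p under 0.05, the 5 largest differences each way, and list genes at an unadjusted p under 0.05. Anchor genes of each complex, more than 1 for most complexes, were also named. Some genes of the lists are not reported here. Promoter windows were absent for 9 members, which were not analysed for sequence. The procedure was tested on simulated data.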

Additional observations from a re-analysis of the deposited data

Results flagged for a closer look

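Of 72 sets of 4 libraries examined (the 34 named members, KRT19 and a median over the members, in each group), 8 had 1 library far from the other 3, measured as its gap to the nearest library over the whole range and past Dixon's 95% critical value. For independent sets chance would give about 1 in 20, or 3.6 of 72. These sets share the same libraries, and some members were named for the size of their difference. The count is therefore a description and not a test. In 5 of the 8 sets the library was KRT19 replicate 3. The gap was 0.949 for KRT19 (8.17 log2 CPM against 8.27 to 8.28), 0.863 for BIRC5 (7.49 against 7.31 to 7.33), 0.956 for CENPO (5.45 against 5.65 to 5.66), 0.848 for MIS18A (4.98 against 4.37 to 4.46) and 0.922 for SGO2 (6.04 against 5.56 to 5.6). In the EV group it was 0.886 for SGO1 with EV replicate 3 low (3.79 against 4.05 to 4.09), 0.861 for SPC24 with EV replicate 1 high (6.02 against 5.99 to 6.0) and 0.889 for ZW10 with EV replicate 2 high (5.61 against 5.44 to 5.46).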

How the results depend on the processing

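Of the 34 named members, 28 kept their direction under all 17 alternatives. The sign turned for CENPO (0.0017), NUF2 (-0.0044) and SKA1 (-0.031) under limma-voom, and for SPC24 when GC and length trends were removed, without (0.014) and with (0.0093) the replicate block. Over the fits that leave out 1 library, SPC24 ran from -0.075 to 0.028, CENPO from -0.042 to 0.026, DSN1 from -0.0035 to 0.10, MIS18A from -0.0076 to 0.24 and SKA1 from -0.094 to 0.15. The looser filter gave 12 members at an unadjusted p under 0.05 (5.15% of 30250 genes) and 1 past the adjusted threshold, CENPE with an adjusted p of 0.026. With the replicate number as a block there were 2 at an unadjusted p under 0.05 (3.08% of all genes). No pairing of libraries by number was visible. The correlations of same-numbered deviations were -0.111, -0.0239, -0.159 and 0.0567, and 1 of the 4 pairs correlated best with its own number. These deviations also carry the GC and length trends of each library, and pairing was not tested further. Leaving out 1 library gave 2 to 13 members at an unadjusted p under 0.05 (4.19% to 8.28% of all genes), 0 to 8 whose groups did not overlap (5.54% to 7.84% of all genes), and a median log2 fold change of 0.043 to 0.11. Removing GC and length trends gave 5 whose groups did not overlap (5.07% of all genes), with CENPK, NDC80, ZWINT and SKA2 higher and MIS12 lower in KRT19 libraries. The causes were not tested. At this depth the widest 95% interval of a member reached 0.273 to each side on the log2 scale, and smaller differences could not be resolved there.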

Other observations

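Cohesin and condensin genes, which hold sister chromatids together and compact them, were the adjoining list with the most values at an unadjusted p under 0.05 among the 4 read beside the kinetochore genes. STAG1, a cohesin subunit, had 41.4, 41.3, 38.9 and 45.3 CPM in EV and 49.7, 45.2, 49.0 and 47.5 CPM in KRT19 libraries. EV replicate 4 lay just above KRT19 replicate 2, and the other libraries separated by group. Its log2 fold change was 0.20 ± 0.062 in edgeR (unadjusted p = 0.00517, adjusted p = 0.868), and 0.19 without KRT19 replicate 3 (unadjusted p = 0.00669). SMC3, the cohesin ATPase gene, had 118, 119, 100.0 and 114 CPM in EV and 125, 116, 152 and 131 CPM in KRT19 libraries, with a log2 fold change of 0.22 ± 0.075, or 0.14 without KRT19 replicate 3. CDCA5, which encodes sororin, was the list's 1 gene whose groups did not overlap, at 142 to 147 CPM in EV and 149 to 163 CPM in KRT19 libraries (log2 fold change 0.094 ± 0.048, edgeR, unadjusted p = 0.0654). The loader NIPBL gave 0.14 ± 0.06, STAG2 0.14 ± 0.062, the cohesin regulator PDS5B 0.22 ± 0.087, and the condensin genes SMC2 and NCAPG 0.22 ± 0.086 and 0.18 ± 0.069. In the fit without KRT19 replicate 3 these 5 gave 0.10, 0.084, 0.15, 0.10 and 0.12, with unadjusted p-values of 0.0872, 0.12, 0.0631, 0.0945 and 0.0564 in edgeR. Without KRT19 replicate 3 the list's median was 0.077 and 3 of the 19 genes had an unadjusted p under 0.05 (5.35% of all genes). They were STAG1, SMC3 and CDCA5 (unadjusted p = 0.0421 in edgeR), so 2 of the 7 remained under 0.05. With GC and length trends removed 12 of the 19 were under 0.05 (8.18% of all genes).

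In the list of mitotic kinases, motors and spindle factors, CLIP1 was higher in every KRT19 library (90.7 to 108 CPM) than in every EV library (81.8 to 89.4 CPM). CCNB2, which encodes cyclin B2, was lower in every KRT19 library (194 to 200 CPM) than in every EV library (201 to 208 CPM), with a log2 fold change of -0.04 ± 0.044 (edgeR, unadjusted p = 0.375). Over all genes tested, 1.63% separated upward and 1.81% downward.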
